A study of Rattus norvegicus with 14 samples.

Results

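The keratins of the interfollicular epidermis, the stretch of epidermis between hair follicles, were followed in the skin of male CD hairless rats. Keratins build the intermediate filaments of epithelial cells, and each filament needs a partner from the acidic type I family and one from the basic type II family. Keratinocytes of the basal layer make Krt5 with Krt14, and switch to Krt1 and Krt10 when they leave that layer. Krt6a, Krt16 and Krt17 are present in hair follicles and are known to be induced in the epidermis by wounding and other stress. Of the 10 keratin genes listed, 8 had a probe whose accession mapped to the gene in rat RefSeq, out of 18625 genes tested. They were the basal keratins Krt5, Krt14 and Krt15, the suprabasal keratins Krt1, Krt2 and Krt77, and the stress keratins Krt16 and Krt17. Krt10 and Krt6a had no matched probe and were not analysed here. Each of the 8 genes had 1 probe, printed as 2 spots per array, and every one of them was measured well above background in each of the 14 animals. Krt5, Krt1, Krt2 and Krt77, the type II genes, lie on chromosome 7, and Krt14, Krt15, Krt16 and Krt17, the type I genes, on chromosome 10.

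Skin was taken from 6 exposed rats, which received 94 GHz millimetre waves for 3 h a day on 3 days a week over 5.5 months, and from 8 sham-exposed rats. All animals were male, of 1 strain and housed in pairs, with no genetic change or other agent named and their age not stated. Each animal gave 1 total RNA from a skin biopsy and 1 one-colour Agilent array, so epidermis, hair follicles, dermis, fat and any muscle were measured together. In such bulk tissue, fewer keratinocytes and less keratin RNA per keratinocyte cannot be told apart. Levels below are log2 signals relative to the 75th percentile of the same array, and differences are exposed minus sham on that log2 scale. Levels of different genes come from different probes and were not set against each other.

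The arrays lay on 4 slides. There were 2 exposed animals on slide 2, 2 sham animals on slide 1, 3 exposed with 3 sham animals on slide 3, and 1 exposed with 3 sham animals on slide 4. The 75th percentile of signal was 1500 ± 314 scanner units in exposed (SD, n = 6) and 1510 ± 342 in sham arrays (SD, n = 8; two-sided exact permutation test, p = 0.954). One array stood apart. Sham animal 6 had the lowest 75th percentile, 804.5, where the other 13 arrays began at 1075, and its median correlation with the other arrays was 0.977, against 0.983 to 0.989 for those arrays. Results that rest on this animal are given with and without it.

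Promoter sequence is shown for the 3 measured members that RefSeq's promoter table for GRCr8 held, all of them type II keratins on 1 chromosome. Krt5 was among the steadiest members between animals once sham animal 6 was left out, whereas Krt2 and Krt77 were among the most variable. Each line gives the 250 bases before the annotated start, 5′ to 3′, with the letters CACCC or their complement GGGTG in capitals.
Krt5, chr7:134730570-134730819, minus strand: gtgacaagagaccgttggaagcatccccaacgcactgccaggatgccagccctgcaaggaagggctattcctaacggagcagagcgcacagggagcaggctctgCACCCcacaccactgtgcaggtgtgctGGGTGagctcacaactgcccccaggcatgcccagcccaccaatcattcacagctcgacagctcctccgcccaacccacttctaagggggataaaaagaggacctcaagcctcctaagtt
Krt2, chr7:134826737-134826986, minus strand: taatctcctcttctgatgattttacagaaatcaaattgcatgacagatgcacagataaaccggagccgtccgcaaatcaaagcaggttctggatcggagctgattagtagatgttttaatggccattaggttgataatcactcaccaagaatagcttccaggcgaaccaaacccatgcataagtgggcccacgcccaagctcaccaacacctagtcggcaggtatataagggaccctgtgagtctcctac
Krt77, chr7:134880777-134881026, minus strand: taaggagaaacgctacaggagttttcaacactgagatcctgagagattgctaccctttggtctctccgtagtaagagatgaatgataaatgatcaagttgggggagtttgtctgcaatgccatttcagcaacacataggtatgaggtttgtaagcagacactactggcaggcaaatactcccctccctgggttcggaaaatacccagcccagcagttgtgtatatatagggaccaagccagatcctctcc
The letters CACCC, searched on both strands, occurred 2 times in the Krt5 window and 0 times in the Krt2 and Krt77 windows, and 49.2% of 33356 rat promoter windows of the same length held them. The letters TATAAA, GCCNNNGGC and TGANTCA, also searched on both strands, were in none of these 3 windows and in 12.9%, 12.6% and 6.35% of all windows. These are descriptions of the letters in these windows only.

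No measured keratin passed the test between exposed and sham skin. The 3 basal keratins lay slightly lower in exposed skin, by 0.055 to 0.080 on the log2 scale. Krt2, a keratin of the upper suprabasal layers, and the stress keratin Krt16 had larger differences, -0.71 and -0.45, inside a wide spread between animals. The suprabasal Krt77 and the stress keratin Krt17 had higher means in exposed skin, by 0.23 and 0.092, and both signs turned without sham animal 6. The limma fit gave an adjusted p under 0.05 to 0 of 18625 genes (0.0%) and an unadjusted p under 0.05 to 635 (3.41%), and 0 of the 8 keratins were in either set. The groups overlapped for all 8 keratins, and 0.0322% of all genes had groups without overlap. The median difference was -0.068 over the 8 keratins, 6 of them lower and 2 higher, and -0.019 over all genes tested, of which 43.0% were higher.

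**Figure D1:**
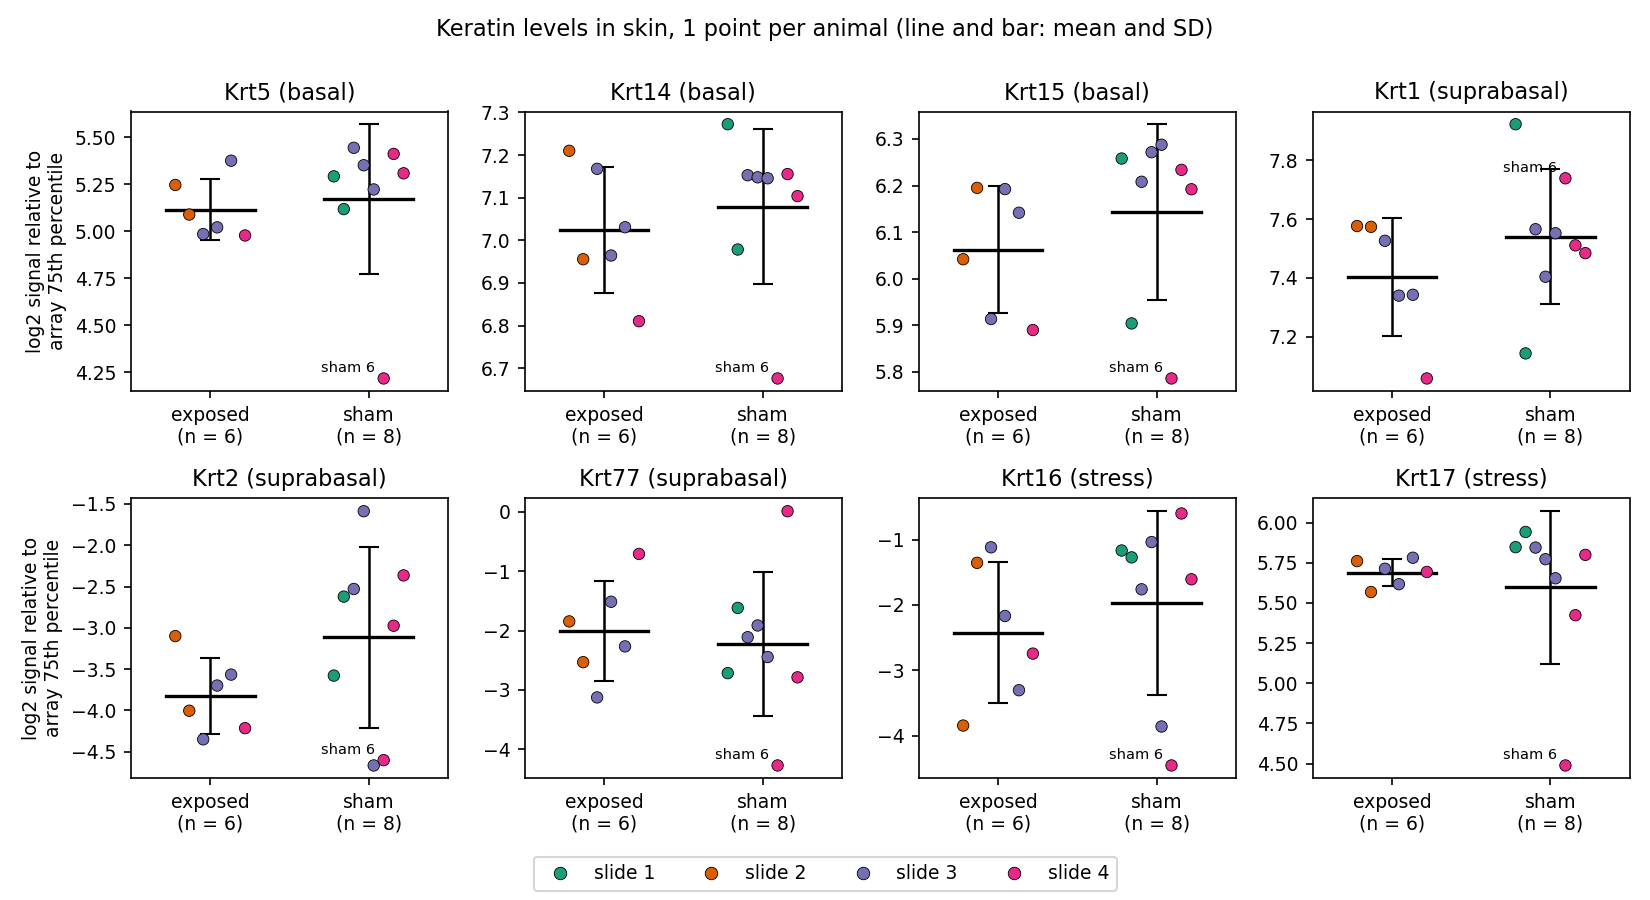
Log2 signal relative to the array's 75th percentile (y axis) of each measured keratin in exposed (n = 6) and sham (n = 8) rats, 1 point per animal coloured by slide, with the mean and SD as line and bar. Exposed and sham points overlap in every panel, and sham animal 6 is the lowest point for Krt5, Krt14, Krt15, Krt77, Krt16 and Krt17.

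Krt5, the type II partner of Krt14 in the basal layer, lay at 4.98, 5.05 and 5.37 (lowest, median and highest) in exposed skin and at 4.22, 5.30 and 5.44 in sham skin. All exposed animals fell within the sham range, and the sham range owed its low end to animal 6 alone. The difference was -0.055 ± 0.17 (SE; 95% interval -0.41 to 0.30; limma, adjusted p = 0.9996 over all genes, as for each of the 8 keratins). Krt14, the type I basal keratin, lay at 6.81, 6.998 and 7.21 in exposed skin, against 6.68, 7.15 and 7.27 in sham skin. Its difference was -0.056 (95% interval -0.26 to 0.15), and the lower end of its interval is a 1.195-fold decrease. Krt15, a type I keratin of basal cells and of the hair follicle bulge, lay at 5.89, 6.09 and 6.19 in exposed skin, against 5.79, 6.22 and 6.29 in sham skin. All 6 exposed animals lay below the sham median and 5 of 8 sham animals above the highest exposed one, with a difference of -0.080 (95% interval -0.28 to 0.12).

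Without sham animal 6 the 3 basal keratins moved further down in exposed skin and none passed. The Krt5 difference was then -0.19 (limma, unadjusted p = 0.031, adjusted p = 0.573), the Krt14 difference -0.11 and the Krt15 difference -0.13. Over all genes 8.32% had an unadjusted p under 0.05 without that animal, and 2 of the 8 keratins did, Krt5 and Krt2. Within slide 3 the differences were -0.21 for Krt5, -0.094 for Krt14 and -0.17 for Krt15. Within slide 4, which holds sham animal 6, they were -0.0013, -0.17 and -0.18. With slide as a block they were -0.14, -0.12 and -0.18.

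Krt1, the type II keratin that cells turn on as they leave the basal layer, lay at 7.06, 7.43 and 7.58 in exposed skin, against 7.14, 7.53 and 7.92 in sham skin. Exposed animal 6 was the lowest of all animals and sham animal 1 the highest. The difference was -0.14 (95% interval -0.39 to 0.11), with -0.10 within slide 3, -0.52 within slide 4 and -0.24 with slide as a block. With the summed level of hair keratins as a covariate it was -0.037, and with the summed level of muscle markers -0.15.

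Krt2, which is added to the filaments late in differentiation, was dim and varied widely, at -4.35, -3.85 and -3.10 in exposed skin, against -4.67, -2.80 and -1.59 in sham skin. All 6 exposed animals lay below the sham median, 5 of 8 sham animals lay above the highest exposed one, and 2 sham animals lay below the lowest exposed one. The difference of -0.71 ± 0.44 (SE) corresponds to 0.613-fold, with a 95% interval from -1.65 to 0.23 (limma, unadjusted p = 0.129). It was negative in each setting tried, with -0.94 within slide 3, -0.90 within slide 4 and -0.93 with slide as a block. Without sham animal 6 it was -0.92 (limma, unadjusted p = 0.040, adjusted p = 0.577), and with array weights, which gave that animal a weight of 0.127, it was -0.995 (limma, unadjusted p = 0.019, adjusted p = 0.306). With the summed muscle marker level as a covariate it was -0.51, and with the summed hair keratin level -0.85.

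Krt77, a suprabasal type II keratin that in humans is found in sweat gland ducts, lay at -3.13, -2.06 and -0.71 in exposed skin, against -4.27, -2.28 and 0.013 in sham skin. The lowest and the highest animal of the series were both sham rats of slide 4, animals 6 and 7. The difference was 0.23 (95% interval -0.91 to 1.37), with -0.15 within slide 3 (95% interval -1.10 to 0.81) and 1.64 within slide 4 (95% interval -3.07 to 6.36), where the exposed arm is 1 animal. Leaving out sham animal 6 gave -0.058, and leaving out exposed animal 6 gave -0.025.

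Krt16, a type I keratin that marks wounded and hyperproliferative epidermis, had the largest SD within groups of the 8. It lay at -3.85, -2.46 and -1.12 in exposed skin, against -4.46, -1.44 and -0.60 in sham skin, a 14.5-fold range over the 14 animals. High and low animals occurred in both groups, and the difference was -0.45 (95% interval -1.81 to 0.90). The lower end of that interval is a 3.50-fold decrease. It was 0.022 within slide 3, -0.52 within slide 4, -0.16 with slide as a block and -0.81 without sham animal 6. Krt17, also of the stress group and of the outer root sheath of hair follicles, lay at 5.57, 5.70 and 5.78 in exposed skin, against 4.49, 5.79 and 5.94 in sham skin. All 6 exposed animals lay below the sham median for Krt17, with 4 of 8 sham animals above the highest exposed one and 2 below the lowest. The difference was 0.092 (95% interval -0.31 to 0.49) with all animals and -0.066 without sham animal 6. It was -0.053 within slide 3, 0.46 within slide 4 and 0.12 with slide as a block.

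**Figure D2:**
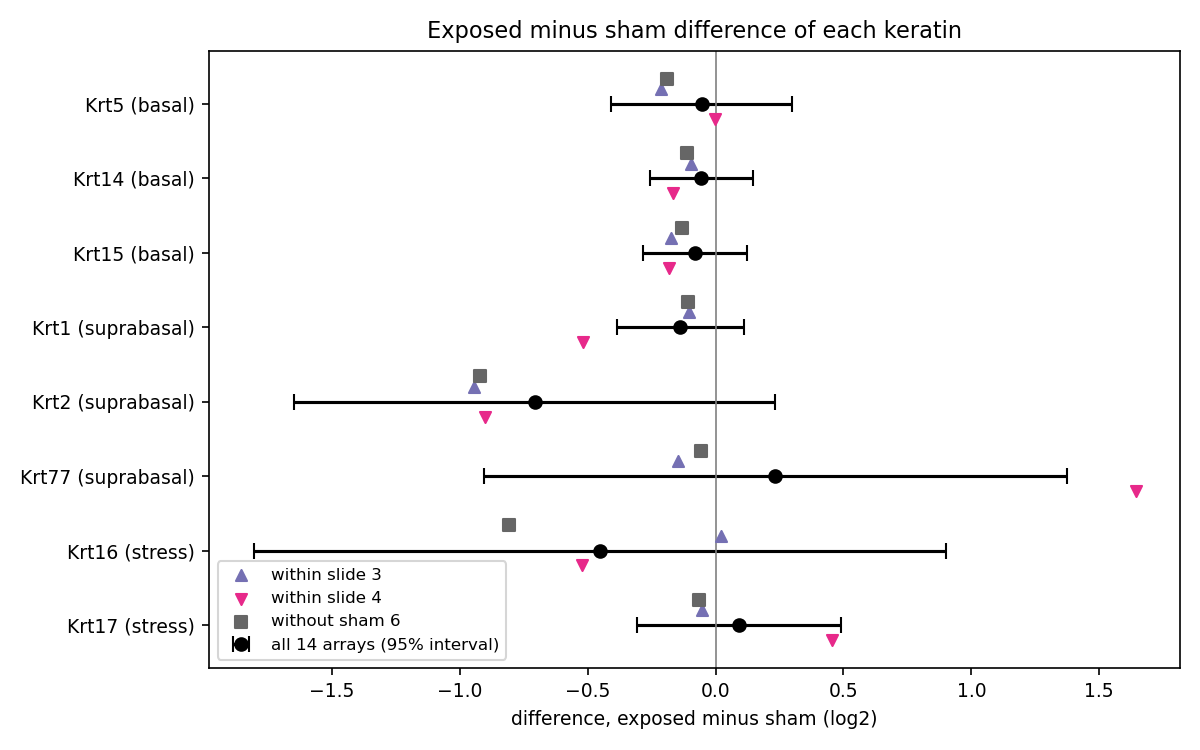
Exposed minus sham difference (x axis, log2) of each keratin, with the 95% interval of the limma fit over 14 arrays as bars and symbols for the differences on slide 3, on slide 4 and over the 13 animals other than sham animal 6. Every interval includes 0, and the intervals of Krt2, Krt77 and Krt16 are wider than those of the other 5.

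By class, 0 of 3 basal keratins were higher and 3 lower in exposed skin, with a median of -0.056. Among the suprabasal keratins 1 was higher and 2 lower with a median of -0.14. Of the stress keratins Krt17 was higher and Krt16 lower, and their median of -0.18 is only the midpoint of these 2 genes. Without sham animal 6 all 8 keratins were lower, where the median difference over all genes was -0.012. None of the classes held a gene past the threshold, and the differences between classes were not tested. Between slides, limma's F-test with group in the model called 0 of 18625 genes (0.0%) and gave 506 genes an unadjusted p under 0.05 (2.72%). The 8 keratins had unadjusted p from 0.238 for Krt17 to 0.936 for Krt77 in that F-test. Slides held different animals, so slide and animal cannot be told apart.

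The keratins fell into a steady and a variable set by their spread between animals within the groups, and this division cut across the classes. The SD within groups was 0.17 for Krt14 and Krt15, 0.22 for Krt1, 0.32 for Krt5 and 0.37 for Krt17 on the log2 scale. It was 0.89 for Krt2, 1.07 for Krt77 and 1.28 for Krt16, where the median over all genes was 0.24. These 3 SDs lay at the 97.5th, 98.5th and 99.0th percentile of all genes tested. With all animals Krt5 and Krt17 lay at the 67.7th and 75.1st percentile. Without sham animal 6 the SD of Krt5 was 0.14 and that of Krt17 0.14, at the 26.7th and 27.1st percentile. The SDs of Krt2, Krt77 and Krt16 stayed at 0.79, 0.91 and 1.07 without that animal. Krt1 lay at the 43.0th percentile with all animals and at the 56.5th without sham animal 6. Of the stress keratins, Krt16 was in the variable and Krt17 in the steady set, with a 9.58-fold range for Krt16 and a 1.43-fold range for Krt17 over the 13 animals other than sham animal 6. The 3 variable probes were dim, with signals from 33.1 to 1683 scanner units, and the 5 steady ones bright, with signals from 14948 to 327473 units. Brightness therefore moves with the spread. The SE of the difference was 0.44 for Krt2, 0.53 for Krt77 and 0.63 for Krt16. With limma's normexp background correction, which adds an offset of 50 units, these were 0.27, 0.40 and 0.45. For the 5 bright probes the SE ran from 0.094 to 0.19 with the processed signal and from 0.095 to 0.19 with normexp. The part of brightness and of background correction in the spread was not tested.

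**Figure D3:**
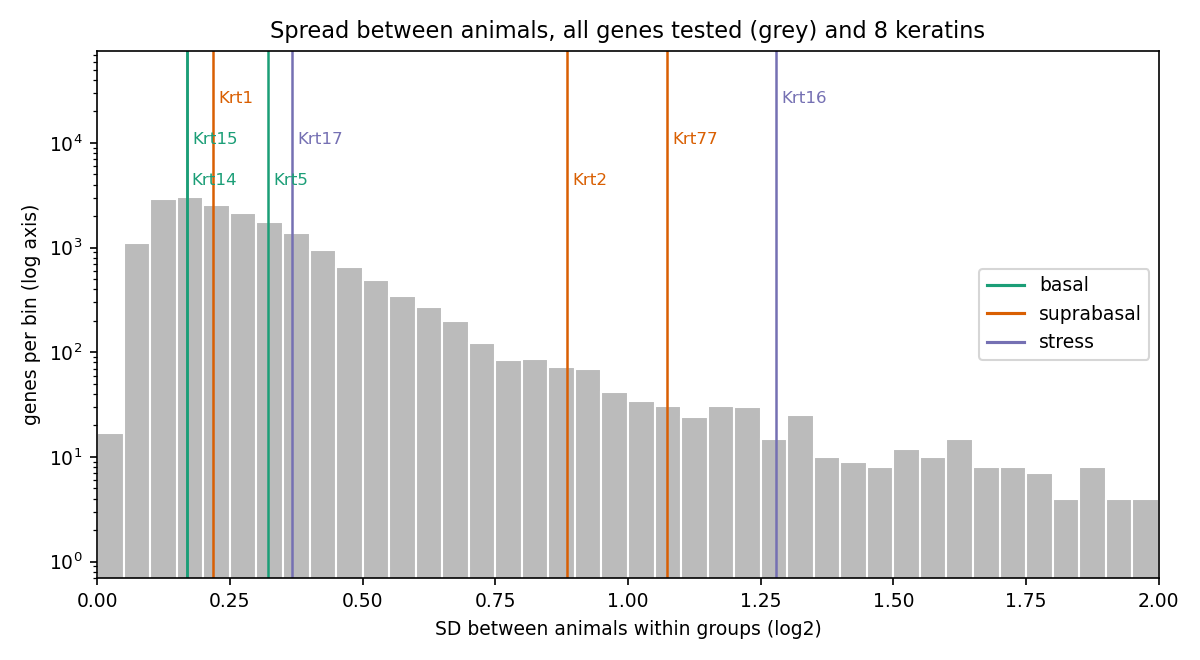
Number of genes (y axis, log scale) by SD between animals within groups (x axis, log2, bins drawn to 2, with 40 of 18625 genes beyond), in grey, and the SDs of the 8 keratins as lines coloured by class. Krt14, Krt15, Krt1, Krt5 and Krt17 stand in the bulk of genes and Krt2, Krt77 and Krt16 in its upper tail.

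Sham animal 6 was low in most but not all keratins, and what it showed for Krt1 depended on the scaling. Relative to each gene's mean over the 14 animals it stood at -0.93 for Krt5, -0.38 for Krt14, -0.32 for Krt15, -1.15 for Krt17, -2.29 for Krt16, -2.14 for Krt77 and -1.18 for Krt2. Krt1 stood at 0.26 and was the second highest of the series. After quantile normalization, which gives all arrays 1 distribution of values, Krt1 was the lowest of the series there, at -0.65, and Krt14 stood at -1.20. The brightest spot of an array differed by 1.10-fold between arrays, from 539688 to 594856 scanner units, and the 75th percentile differed by 2.45-fold. Krt1 lay between 171805 and 327473 units, and no spot of the arrays was marked saturated. The differences between exposed and sham skin kept their sign for all 8 keratins after quantile normalization.

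**Figure D4:**
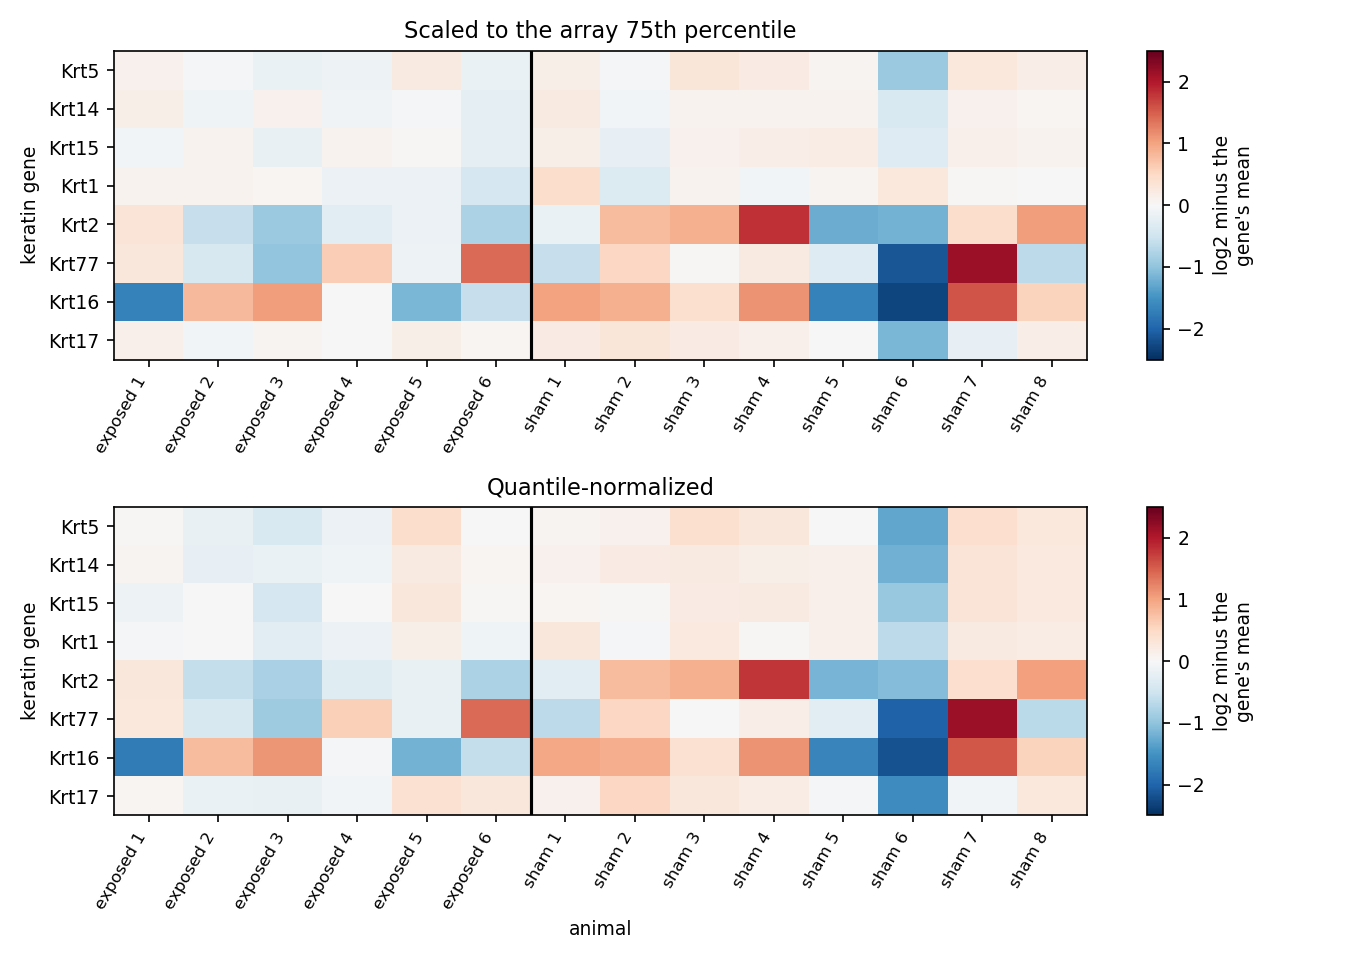
Deviation of each keratin from its mean over the 14 animals (colour, log2) in exposed and sham animals, with the 75th percentile scaling above and quantile normalization below. The column of sham animal 6 is blue for all 8 keratins after quantile normalization, and for all but Krt1 with the 75th percentile scaling.

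Relations between keratins over the 14 animals were computed for the 28 pairs, and each keratin was set against the summed muscle level, the summed hair keratin level and the array's 75th percentile, 52 relations in all. Of these, 3 passed at an adjusted p under 0.05 for Pearson's r and 0 for Spearman's rho (permutation tests with 100000 resamples, two-sided). The basal partners Krt5 and Krt14 had r = 0.79 (permutation p = 0.0013, adjusted p = 0.027) and rho = 0.55 (permutation p = 0.046, adjusted p = 0.262). Krt5 and Krt15 had r = 0.75 (permutation p = 0.0008, adjusted p = 0.027) and rho = 0.61 (permutation p = 0.024, adjusted p = 0.196). Both rested in part on 1 animal, with r = 0.58 and 0.64 without sham animal 6, adjusted p = 0.182 and 0.176 in the same permutation tests. Without the 2 animals farthest from the Krt5 median, sham animal 6 and exposed animal 6, r was 0.43 and 0.53, and within slide 3 it was 0.23 and 0.56 (6 animals). Krt1 and the summed hair keratin level had r = -0.74 (permutation p = 0.0016, adjusted p = 0.027) and rho = -0.71 (permutation p = 0.0060, adjusted p = 0.104). This value was -0.72 without sham animal 6, -0.62 without the 2 animals farthest from the median hair level and -0.16 within slide 3. It was -0.12 with Krt1 quantile-normalized and the hair level kept on the 75th percentile scaling, so the scalings of the variables differed there.

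The number of relations that passed differed with the scaling and with sham animal 6. After quantile normalization 17 of the 52 relations passed, and 5 did without sham animal 6. The 17 held both keratin pairs and relations of keratins with the array's 75th percentile, and the 5 were keratin pairs only. With quantile normalization Krt5 and Krt14 had r = 0.97 (0.91 without sham animal 6), and Krt5 and Krt15 had r = 0.96 (0.88 without that animal). Krt5 and Krt1, from the basal and the suprabasal layer, had r = -0.099 with the 75th percentile scaling (rho = 0.042) and 0.40 without sham animal 6. The same pair had r = 0.90 after quantile normalization and 0.75 without that animal. Krt14 and Krt1 had r = 0.35 (rho = 0.40) with the 75th percentile scaling and 0.81 without sham animal 6, the one relation that passed there (permutation test, adjusted p = 0.034). It was 0.72 without the 2 animals farthest from the Krt14 median and 0.82 within slide 3. Neither of these passed (permutation tests, adjusted p = 0.143 and 0.785). After quantile normalization the pair had r = 0.88 and passed (permutation test, adjusted p = 0.0027). With quantile normalization and without sham animal 6 it had r = 0.71 and did not pass (permutation test, adjusted p = 0.055). With the 75th percentile scaling, the array's 75th percentile itself had r = 0.73 with Krt77, 0.70 with Krt17, 0.66 with Krt5 and -0.66 with Krt1, and none of these passed (permutation tests, adjusted p = 0.0552, 0.129, 0.129 and 0.102). The value for Krt1 was -0.64 without sham animal 6, and that for Krt5 was 0.095. That for Krt14 was 0.17 with all animals and -0.62 without sham animal 6, and neither passed (permutation tests, adjusted p = 0.685 and 0.176). A level is the log2 signal minus the log2 of this same 75th percentile, so these r values hold it on both sides. Its share in them was not tested. The quantile-normalized levels of Krt5, Krt14, Krt15, Krt1, Krt17 and Krt77 all went up with the array's 75th percentile, at r from 0.67 to 0.86 with all animals. Each of these relations passed (permutation tests, adjusted p from 0.0027 to 0.048). Without sham animal 6 their r ran from 0.25 to 0.67 and none passed (permutation tests, adjusted p from 0.084 to 0.726). The part of the array's 75th percentile in the pair values was not tested.

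**Figure D5:**
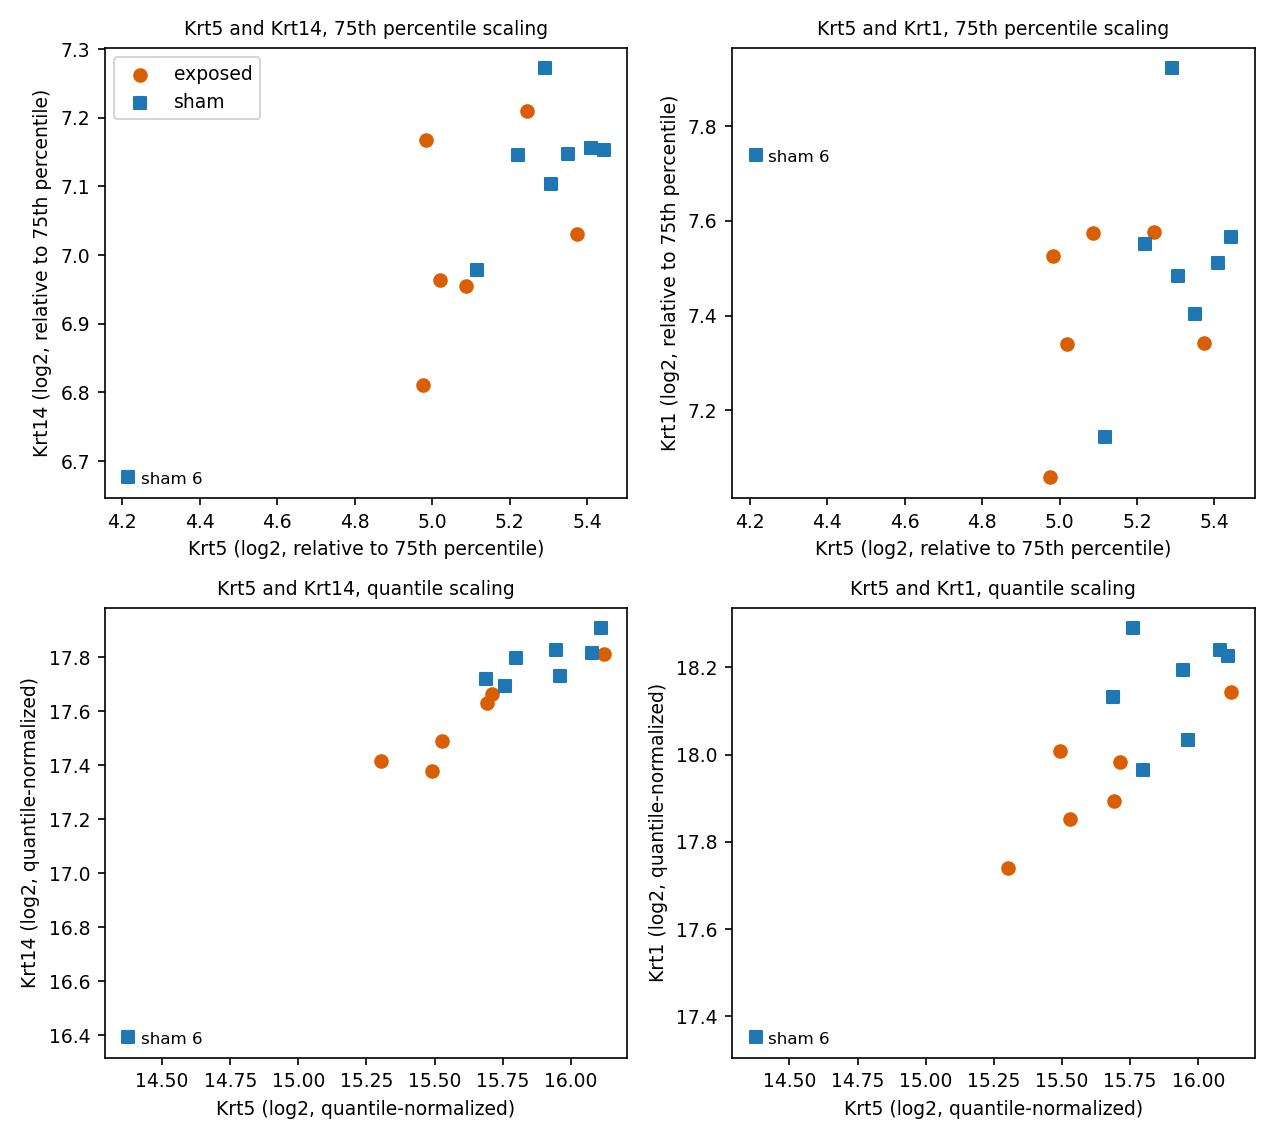
Krt5 level (x axes) against Krt14 (left) and Krt1 (right) in exposed and sham animals, with the 75th percentile scaling (top, log2) and quantile normalization (bottom, log2). Sham animal 6 is the left-most point of each panel, low for Krt14 in both rows and low for Krt1 only after quantile normalization.

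The genes whose levels followed each keratin most closely over the 14 animals were looked up among 11264 genes with a symbol, as a description. All symbols that start with Krt were left out, also those of genes that are not keratins. Krt5 went with Skic2 (r = 0.97) and Snd1 (r = 0.97), and with r = 0.90 and 0.89 for the same genes without sham animal 6. Krt14 went with Phgdh (r = 0.93), the first enzyme of serine synthesis, and Aldh2 (r = 0.90), a mitochondrial aldehyde dehydrogenase. Krt15 went with Fig4 (r = 0.89) and the elongation factor gene Eef2 (r = 0.89). Krt1 went with Xk (r = 0.89) and Gpa33 (r = 0.89). Krt2 went with Bcl9l (r = 0.85) and the splicing factor gene Rbfox2 (r = 0.84), and Krt77 with Rpp38 (r = 0.89) and the small heat shock protein gene Hspb8 (r = 0.88). Krt16 went with Dcaf8 (r = 0.85) and Tmem97 (r = 0.79), and Krt17 with Selenoo (r = 0.96; 0.72 without sham animal 6) and Ddx27 (r = 0.96; 0.85 without that animal). All of these values share the scaling of the arrays and are the highest of a long list.

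Genes that hold or regulate keratin filaments also gave 0 calls in each list. Of the desmosomal anchors, which tie keratin to cell junctions, 1 of 9 measured members was higher and 8 lower in exposed skin, with a median of -0.13. Evpl, the plakin envoplakin, differed by -0.25 (95% interval -0.47 to -0.029; limma, unadjusted p = 0.029) and Jup, plakoglobin, by -0.13. Of the hemidesmosomal anchors, which tie keratin to the basement membrane, 1 of 5 was higher and 4 lower, with a median of -0.12. Among them the integrin chain Itgb4 differed by -0.22 (95% interval -0.42 to -0.024; limma, unadjusted p = 0.031) and the linker plectin, Plec, by -0.12. Of the keratin-binding and envelope genes 2 lay higher and 7 lower, the casein kinase Csnk1a1 at -0.11 and Sbsn at -0.18. Of the keratinocyte transcription factors 10 lay higher and 10 lower, the antioxidant regulator Nfe2l2 at 0.11 and Klf5 at -0.16. Of the alarmins and growth factors that accompany stress keratins 8 lay higher and 4 lower, S100a7a at 0.77 (95% interval -0.63 to 2.17) and Il36a at -0.53. Il36a was well above background in only 4 of 6 exposed and 6 of 8 sham animals. Of the other epithelial keratins 5 lay higher and 7 lower, Krt18 at -0.37 and Krt19 at 0.35. Krt18 was well above background in only 2 of 6 exposed and 7 of 8 sham animals, and Krt19 in 4 of 6 and 7 of 8. Both differences therefore include values near background.

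The biopsies differed in what else they held. For each list the 2 genes with the smallest p are named. All 14 measured muscle markers had higher means in exposed skin, with a median difference of 1.33. The difference was 2.46 for Myl1 (95% interval -0.73 to 5.65) and 3.198 for Myh1 (95% interval -1.07 to 7.46). Myl1 was well above background in 5 of 6 exposed and 4 of 8 sham animals, and Myh1 in 6 of 6 and 5 of 8. Both differences therefore include values near background. The summed muscle level ran from 1.45 to 7.54 in exposed and from 0.93 to 6.27 in sham skin. Hair keratins of the inner root sheath and companion layer were higher in 7 of 7 members, with a median of 0.75 (Krt73 at 1.05, Krt26 at 0.99). Those of the hair shaft were higher in 11 of 11, with a median of 0.56 (Krt40 at 1.38, Krt35 at 1.33). Summed levels of these lists, in that order, ran from 4.52 to 7.52 and from 0.80 to 5.72 in exposed skin. In sham skin they ran from 3.87 to 6.93 and from 0.66 to 4.92. The 95% intervals of Krt73, Krt26, Krt40 and Krt35 spanned both signs. Members of a list were measured in the same biopsies and are not independent, so these counts were not a test of a group difference. Adipocyte markers were split 6 higher to 1 lower (Retn at 0.46, Adipoq at 0.35), sebaceous markers 2 to 6 (Mc5r at -0.38, Fasn at -0.13) and fibroblast markers 1 to 7 (Fbln1 at -0.40, Dcn at -0.18). Endothelial markers were split 2 to 4 (Cdh5 at -0.20, Emcn at 0.18), leukocyte markers 3 to 5 (Cd68 at -0.23, Tpsb2 at -0.39) and melanocyte markers 2 to 2 (Mlana at -0.23, Mitf at -0.099). None of these lists held a gene past the threshold, and apart from the muscle and hair covariates above their part in the keratin values was not tested.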

How the data were processed

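Gene expression was measured in whole skin of 14 rats on one-colour Agilent arrays, 1 per animal. Groups came from the treatment in the labels, and animal numbers only name animals. The deposited scanner files give the linear-scale intensity of each spot, from Feature Extraction 10.7.3.1 per the file headers, whose background-corrected processed signal was used. A log2 table deposited by the authors covers 15168 probes, each centred on its median over the arrays, with column medians from -0.0086 to 0.012. No source used here names its between-array normalization. Its columns correlated at 0.999 with quantile-normalized and at 0.901 to 0.992 with 75th percentile values of the same arrays, which settled scale and direction.

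Of 62976 spots, 4259 control spots and outlier spots were left out. Log2 processed signal minus the array's 75th percentile was averaged per probe. A probe was kept when well above background on at least 6 arrays (21030 of 30367), and a gene was its brightest kept probe. Symbols came from accessions without version matched to RefSeq genes of GRCr8, for 17998 probes (59.3%). Of the 18625 genes tested, 11326 had a symbol. The rest were unmatched accessions, each counted as a gene, so a gene can be counted more than once in shares and percentiles. Probe sequences were not used here, so cross-hybridization among near-identical keratins could not be checked and is a limit of each keratin value.

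The exposed minus sham difference was fitted by limma 3.58.1 under R 4.3.3 (lmFit, eBayes, two-sided, 95% intervals, Benjamini-Hochberg over all genes), tested on simulated data. Animals were treated as independent, because the labels do not name cage mates. The number of arrays limits the precision. A summed level is the log2 of the summed linear values of a list. Alternatives covered background, normalization, filters, probe choice, slide, composition, array weights and single arrays. The keratins, lists and tests were chosen with earlier results of these data known. Named genes were all members, the 2 list members with the smallest p, and for each keratin the 2 genes of highest r whose symbol does not start with Krt.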

Additional observations from a re-analysis of the deposited data

Results flagged for a closer look

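Of 18 sets of values checked, each the exposed or the sham values of 1 quantity, 2 held an animal far from the rest of its group, where chance gives about 1 in 20. Sham animal 6 lay at 4.22 for Krt5, and its gap to the next sham animal was 0.734 of the sham range, above Dixon's 95% critical value of 0.526 for 8 samples. The same animal lay at 4.49 for Krt17, with a gap of 0.643 of the range. Both values are of the animal with the lowest array signal, and the part of array signal in them was not tested. The sets come from the same arrays and both flags are of 1 animal. They are therefore not independent, and their count cannot be judged against the rate by chance.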

How the results depend on the processing

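The count of genes with an adjusted p under 0.05 between exposed and sham skin was 0 in each of the alternatives run with limma, with 295 (within slide 4) to 2334 (array weights) genes at an unadjusted p under 0.05 (1549 in the fit without sham animal 6), and the count between slides was 0 also after quantile normalization. Signs turned within slide 3 for Krt77 (-0.145), Krt16 (0.0222) and Krt17 (-0.0531), and for Krt17 with array weights (-0.0596). With single arrays left out, differences ranged from -0.0584 to 0.554 for Krt77 and from -0.0659 to 0.142 for Krt17, and without exposed animal 6 that of Krt77 was -0.0249. They kept their sign for Krt5 (-0.191 to -0.0158), Krt14 (-0.113 to -0.0133), Krt15 (-0.131 to -0.0458), Krt1 (-0.194 to -0.0684), Krt2 (-0.928 to -0.488) and Krt16 (-0.808 to -0.168). The count of relations past the threshold, 3, became 17 after quantile normalization, 5 with quantile normalization without sham animal 6, 1 without that animal, and 0 with values centred within groups, within slide 3 or without the 2 extreme animals (fewer animals in the last 2). With values centred within groups the 3 relations had r = 0.79, 0.75 and -0.71, with an adjusted p of 0.0517 in the permutation tests. The cause of the other changes was not tested. The relation of Krt5 and Krt1 turned to 0.0699 within slide 3, 0.204 without the 2 extreme animals, 0.399 without sham animal 6, 0.903 after quantile normalization and 0.751 with both, and that of Krt14 and Krt15 to -0.109 within slide 3. Leaving out saturated probes changes nothing, since no spot was marked saturated. Krt2 was not among the authors' deposited probes used here. The correlation of the random slide block was -0.0796. No paired analysis was possible because the labels number no animals across groups. The 2 settings without sham animal 6 for relations were chosen after seeing the data. What signal over background limits was not tested.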
